A study of Mus musculus with 46 samples.

Results

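The genes described here are 10 genes of the neuromuscular junction and its upkeep: *Chrna1*, *Chrnb1*, *Chrnd* and *Chrne* (subunits of the muscle acetylcholine receptor), *Musk*, *Dok7* and *Rapsn* (the signalling and clustering path that holds the receptors under the nerve), *Ache* (acetylcholinesterase), *Fgfbp1* (an extracellular carrier of fibroblast growth factors) and *Ngfr* (a neurotrophin receptor). They were selected on their measured expression changes in these comparisons, with earlier results of these data known, so every difference given for them is a description and no independent test. They are 10 of 17514 genes in the gastrocnemius table and 10 of 16987 in the spinalis table, and 16642 genes stand in both. The mice were C57BL6, either wild type (WT) or without *Actn3* (KO). Males had orchidectomy (ORX) or sham surgery at 8 to 10 weeks of age and gastrocnemius was taken 12 weeks later, giving WT-sham (n = 6), WT-ORX (n = 6), KO-sham (n = 6) and KO-ORX (n = 5; 6 are described, and the sixth was not analysed here). Females had an implant with 10 mg of dihydrotestosterone (DHT) or an empty one at 4 to 5 weeks of age and spinalis was taken 6 weeks later, giving WT-empty (n = 5), WT-DHT (n = 6), KO-empty (n = 5) and KO-DHT (n = 6). Surgery under isoflurane with buprenorphine was shared by all groups.

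Muscle acetylcholine receptors gather at the synapse when nerve-derived agrin binds LRP4 and activates the kinase MuSK, which signals through Dok7 to rapsyn. In adult muscle these genes are transcribed mainly by the few nuclei below the synapse, and loss of the nerve or of synaptic signalling spreads transcription of several of them along the fibre. Acetylcholinesterase ends transmission in the synaptic cleft, and FGFBP1 and neurotrophin receptors have been tied to maintenance of the synapse.

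The genotype labels were checked with *Actn3*, whose counts ran from 271459 to 344665 in WT-sham and from 1301 to 1653 in KO-sham. Against WT, its log2 fold change was −7.18 (SE 0.12) after sham surgery, −7.61 (SE 0.13) after ORX, −7.12 (SE 0.12) with empty implants and −6.71 (SE 0.11) with DHT, called lower in all 4. In WT *Actn3* was called higher after ORX at 0.42 (SE 0.088) and called lower with DHT at −0.44 (SE 0.090). That last call was lost without the 6 libraries high in *Lars2* described below, at −0.47. The 6 markers of the skeletal muscle fibre, all in both tables and led by *Ttn*, summed to between 163830.0 and 296220.0 CPM in gastrocnemius and between 199870.0 and 308310.0 CPM in spinalis. In bulk muscle, fewer cells of a type and less RNA per cell cannot be told apart. Library totals ran from 26653932 to 55369921 counts in gastrocnemius and from 34812381 to 53899279 in spinalis. All 6 KO-sham libraries (29511438 to 37486666) were smaller than all 6 WT-sham libraries (43408015 to 50273747). Levels are CPM after TMM scaling, fold changes are log2 from edgeR with their standard error (SE), and the tables were scaled separately, so no value is compared between the muscles.

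Libraries of spinalis are numbered here by column order within their group, not by the replicate numbers of the labels. WT-DHT 5 and 6 stood apart from WT-DHT 1 to 4. Their counts differed from those of the other 4 by a chi-square per degree of freedom of 282 to 619.6, against 20.7 to 42.2 among the other 4, 128 between 5 and 6 and 9.09 to 266 within the other 7 groups. Their TMM factors were 0.8455 and 0.897. The 4 genes that differed most in mean CPM were 1 without a symbol (127760.0 and 59420.0 CPM against 4244.9 to 7981.7), *Lars2* (71871.0 and 32587.0 CPM against 569 to 915), *mt-Rnr2* (36472.0 and 28139.0 CPM against 57430.0 to 83683.0) and *Mir6236* (12902.0 and 5764.9 CPM against 92.2 to 127). *Lars2* also stood above 4000 CPM in WT-empty 2 and 3 (8921.7 and 4660.0) and KO-DHT 2 and 3 (13465.0 and 7639.6), and reached at most 3400.2 in the other 16 spinalis libraries. The cause was not tested. All libraries were kept, and the spinalis results are given without WT-DHT 5 and 6, and without all 6, as alternatives chosen after seeing the data.

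Calls use an adjusted p of at most 0.01 over all genes, or 0.05 in an interaction. After ORX in WT, 1 of the 10 was called higher and 1 lower, with a median log2 of 0.27 against 0.013 for all genes, while 2.04% of all genes were called higher and 3.41% lower. After ORX in KO, 1 of the 10 was called higher and 1 lower, with a median log2 of 0.10 against 0.014 for all genes, while 1.99% of all genes were called higher and 3.58% lower. The 975 genes called numbered 589 without KO-ORX 4, 606 without KO-ORX 5 and 484 with only the groups compared. Those of the 10 called were *Chrnb1* (higher) and *Musk* (lower) in WT and the same 2 genes in KO. For KO-sham against WT-sham, 1 of the 10 was called higher and 1 lower, with a median log2 of −0.0077 against −0.0069 for all genes, while 2.48% of all genes were called higher and 2.82% lower. For KO-ORX against WT-ORX, 1 of the 10 was called higher and 2 lower, with a median log2 of −0.10 against 0.0086 for all genes, while 1.07% of all genes were called higher and 2.73% lower. Here they were *Chrnb1* (higher) and *Musk* (lower) after sham surgery, and *Chrnb1* (higher) and *Musk* and *Fgfbp1* (lower) after ORX. Read nothing from shares of all genes beside counts of 10 selected genes. With scaling by library size only, the percentage higher among called genes moved from 37.5% to 54.4% after ORX in WT. It moved from 35.7% to 78.6% after ORX in KO, and from 28.2% to 46.9% in KO against WT after ORX.

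The genotype by ORX interaction called 0 of the 10 in edgeR, and likewise 0 in DESeq2 and 0 in limma-voom. Unadjusted p were below 0.05 for 1 of the 10 (*Musk*) and for 1683 of all genes in edgeR. The median of the 10 was −0.086 against 0.0032 for all genes, of which 0.0171% were called higher and 0.00571% lower, 4 genes in all, against 127 with DESeq2, 10 with limma-voom and 16 with thinned counts. Without 1 library that number ran from 2 (without KO-sham 6 or WT-ORX 4) to 38 (without KO-ORX 3), with 24 without WT-ORX 2 and 7 to 10 without KO-sham 2, 4 or 5 or WT-sham 1, 2, 4 or 6. With scaling by library size only, the called genes moved from 3 higher and 1 lower to 3 higher and 0 lower (75% to 100% higher).

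With DHT in WT, 2 of the 10 were called higher and 3 lower, with a median log2 of −0.32 against −0.0063 for all genes, while 6.63% of all genes were called higher and 4.64% lower. With DHT in KO, 2 of the 10 were called higher and 2 lower, with a median log2 of 0.14 against −0.011 for all genes, while 2.86% of all genes were called higher and 1.75% lower. The 784 genes called numbered 498 with only the groups compared and 1201 with DESeq2. DHT called *Musk* and *Dok7* (higher) and *Chrnb1*, *Fgfbp1* and *Ngfr* (lower) in WT, and *Musk* and *Ache* (higher) and *Fgfbp1* and *Ngfr* (lower) in KO. For KO-empty against WT-empty, 1 of the 10 was called higher and 2 lower, with a median log2 of 0.12 against 0.013 for all genes, while 1.75% of all genes were called higher and 2.5% lower. Here the 722 genes called numbered 481 without WT-empty 2, 450 without WT-empty 3, 453 without KO-empty 3 and 289 with only the groups compared. For KO-DHT against WT-DHT, 3 of the 10 were called higher and 1 lower, with a median log2 of 0.50 against 0.0064 for all genes, while 5.13% of all genes were called higher and 6.51% lower. The genotype comparisons called *Chrnb1* (higher) and *Musk* and *Fgfbp1* (lower) with empty implants, and *Chrnb1*, *Chrne* and *Ache* (higher) and *Musk* (lower) with DHT. In the genotype by DHT interaction, 3 of the 10 were called higher and 1 lower, with a median log2 of 0.45 against −0.0094 for all genes, while 1.34% of all genes were called higher and 1.9% lower. The interaction called *Chrnb1*, *Ache* and *Fgfbp1* (higher) and *Musk* (lower). With scaling by library size only, the share higher among called genes moved from 58.8% to 43.6% with DHT in WT and from 41.3% to 52.9% in KO against WT with empty implants. It moved from 44.1% to 65.3% in KO against WT with DHT and from 41.5% to 55.1% in the genotype by DHT interaction.

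Without WT-DHT 5 and 6, the number of all genes called was 1689 with DHT in WT (1914 with all libraries), 1639 in KO against WT with DHT (1978) and 662 in the interaction (550). The log2 fold changes with DHT in WT were then, with those from all libraries in brackets, *Chrna1* −0.45 (−0.39), *Chrnb1* −0.33 (−0.39), *Chrnd* −1.59 (−0.98), *Chrne* −0.38 (−0.25), *Musk* 2.03 (2.04), *Dok7* 0.77 (0.66), *Rapsn* −0.040 (−0.0035), *Ache* −0.086 (0.016), *Fgfbp1* −4.28 (−4.26) and *Ngfr* −3.25 (−3.04). In KO against WT with DHT they were *Chrna1* 0.36 (0.31), *Chrnb1* 0.98 (1.04), *Chrnd* 1.89 (1.29), *Chrne* 0.82 (0.69), *Musk* −1.69 (−1.69), *Dok7* −0.31 (−0.20), *Rapsn* 0.072 (0.038), *Ache* 1.09 (0.99), *Fgfbp1* −0.74 (−0.76) and *Ngfr* 1.101 (0.90). The interaction gave *Chrna1* 0.30 (0.24), *Chrnb1* 0.36 (0.41), *Chrnd* 1.43 (0.82), *Chrne* 0.64 (0.50), *Musk* −0.95 (−0.97), *Dok7* −0.40 (−0.29), *Rapsn* 0.32 (0.28), *Ache* 0.96 (0.85), *Fgfbp1* 2.25 (2.23) and *Ngfr* 0.79 (0.58). In these fits *Chrnd* was called higher in KO against WT with DHT, the interaction of *Chrnb1* was not called, and no other call of the 10 differed. Without all 6 libraries high in *Lars2*, 1195 genes were called with DHT in WT, 427 with DHT in KO (784 with all libraries), 283 in KO against WT with empty implants (722), 1301 in KO against WT with DHT and 273 in the interaction. The calls of the 10 that these fits ended or made stand with each gene. Without these 6, WT-empty, WT-DHT and KO-DHT hold fewer libraries. The part of group size in the lost calls was not tested.

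Per kilobase of exon, the levels in WT-sham gastrocnemius ran in the order *Musk* 14.4, *Rapsn* 11.5, *Chrne* 6.53, *Chrnb1* 6.20, *Ache* 3.203, *Fgfbp1* 3.16, *Dok7* 2.88, *Chrna1* 2.28, *Chrnd* 0.300 and *Ngfr* 0.152 CPM per kb. In WT-empty spinalis the order was *Rapsn* 12.2, *Fgfbp1* 6.63, *Chrnb1* 6.08, *Musk* 5.44, *Ache* 3.41, *Chrne* 3.06, *Dok7* 3.06, *Chrna1* 2.38, *Ngfr* 0.916 and *Chrnd* 0.246 CPM per kb. Among neighbours in this order all libraries of the higher gene lay above those of the lower in WT-sham for *Rapsn* over *Chrne*, *Chrnb1* over *Ache*, *Chrna1* over *Chrnd* and *Chrnd* over *Ngfr*, and the others overlapped. In WT-empty this held only for *Rapsn* over *Fgfbp1* and *Chrna1* over *Ngfr*. A gene on the opposite strand shares 98 bases with *Ache* (*Gm42456*, not analysed here) and 4 bases with *Rapsn* (*Gm13778*). The strand setting of the counting is not stated, and its effect on these 2 genes was not tested.

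**Figure D1:**
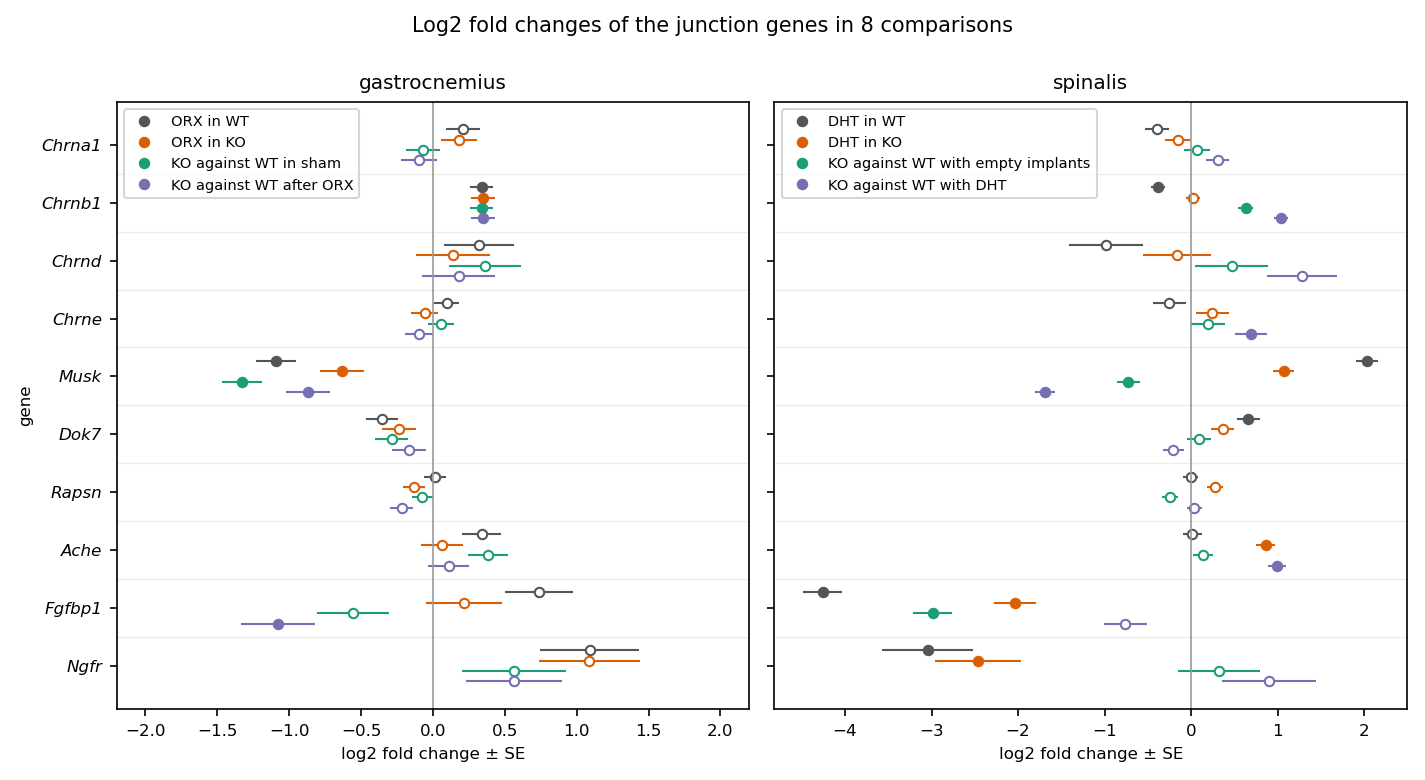
Log2 fold changes (points, edgeR) with their standard errors (bars) of the 10 genes in the 4 pairwise comparisons of each muscle. Filled points are called, and *Musk* is filled in all 8.

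*Chrna1* encodes the subunit that carries most of the acetylcholine binding site. In gastrocnemius, *Chrna1* averaged 10.01 ± 1.94 CPM in WT-sham (SD, n = 6, 6.25 to 11.5, median 10.6) and 11.6 ± 1.13 CPM in WT-ORX (SD, n = 6, 10.1 to 13.02, median 11.3). Without *Actn3*, *Chrna1* averaged 9.55 ± 1.09 CPM in KO-sham (SD, n = 6, 8.27 to 10.9, median 9.36) and 10.8 ± 1.77 CPM in KO-ORX (SD, n = 5, with 8.38, 12.9, 11.5, 9.74 and 11.6). The groups overlapped in all 4 comparisons, with 2 of 6 WT-ORX libraries above every WT-sham library and WT-sham library 5 the lowest of its group. The log2 fold changes of *Chrna1* were 0.21 (SE 0.12) after ORX in WT, 0.18 (SE 0.13) after ORX in KO, −0.070 (SE 0.12) in KO against WT in sham and −0.10 (SE 0.12) in KO against WT after ORX, none called. In spinalis, *Chrna1* averaged 10.4 ± 2.75 CPM in WT-empty (SD, n = 5, with 8.196, 15.1, 8.98, 9.38 and 10.4) and 7.94 ± 0.518 CPM in WT-DHT (SD, n = 6, 7.097 to 8.53, median 7.99). In KO, *Chrna1* averaged 10.9 ± 2.05 CPM in KO-empty (SD, n = 5, with 10.1, 9.03, 14.1, 11.8 and 9.699) and 9.82 ± 1.605 CPM in KO-DHT (SD, n = 6, 7.89 to 11.8, median 9.72). Here 4 of 6 WT-DHT libraries lay below every WT-empty library, and 4 of 6 KO-DHT libraries lay above every WT-DHT library, with overlap in each comparison. With the implants the log2 fold changes were −0.39 (SE 0.14) with DHT in WT, −0.16 (SE 0.14) with DHT in KO, 0.069 (SE 0.15) in KO against WT with empty implants and 0.31 (SE 0.13) in KO against WT with DHT, none called.

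*Chrnb1*, the beta subunit present in both the embryonic and the adult receptor, was the receptor gene called most often. In gastrocnemius, *Chrnb1* averaged 15.7 ± 1.05 CPM in WT-sham (SD, n = 6, 14.2 to 17.01, median 15.6) and 19.9 ± 1.24 CPM in WT-ORX (SD, n = 6, 18.5 to 21.9, median 19.4). Without *Actn3*, *Chrnb1* averaged 19.9 ± 3.196 CPM in KO-sham (SD, n = 6, 15.8 to 25.1, median 19.3) and 25.3 ± 2.23 CPM in KO-ORX (SD, n = 5, with 25.9, 22.4, 23.6, 27.9 and 26.6). All 6 WT-ORX libraries lay above all WT-sham libraries and all 5 KO-ORX libraries above all WT-ORX libraries, while KO-sham overlapped WT-sham and KO-ORX. By mean level *Chrnb1* ran in gastrocnemius in the order KO-ORX, then KO-sham, then WT-ORX, then WT-sham, and of the neighbours only WT-ORX and WT-sham did not overlap. *Chrnb1* was called higher in all 4 comparisons, at log2 0.34 (SE 0.080) after ORX in WT, 0.35 (SE 0.084) after ORX in KO, 0.34 (SE 0.081) in KO against WT in sham and 0.35 (SE 0.083) in KO against WT after ORX. The first call was lost without WT-sham 1, 2, 4 or 5 or WT-ORX 3, 4 or 6 (log2 0.31 to 0.34) and with thinned counts. After ORX in KO it was lost without KO-sham 2, 4 or 6 or KO-ORX 1, 4 or 5 (log2 0.29 to 0.34), with thinned counts and with only the groups compared. In KO-sham against WT-sham it was lost without KO-sham 1, 3 or 5 or WT-sham 1, 2, 4 or 5 (log2 0.26 to 0.34), with limma-voom, with library size only, with thinned counts and with only the groups compared. In KO-ORX against WT-ORX it was lost without KO-ORX 1, 4 or 5, WT-sham 1, 2, 3 or 4 or WT-ORX 1, 2, 3, 5 or 6 (log2 0.31 to 0.36) and with thinned counts.

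In spinalis, *Chrnb1* averaged 15.4 ± 0.956 CPM in WT-empty (SD, n = 5, with 15.7, 16.4, 15.4, 13.8 and 15.5) and 11.8 ± 1.44 CPM in WT-DHT (SD, n = 6, 10.2 to 14.4, median 11.4). For KO, *Chrnb1* was at 23.8 ± 1.36 CPM in KO-empty (SD, n = 5, with 25.98, 23.9, 23.9, 22.7 and 22.6) and 24.2 ± 2.19 CPM in KO-DHT (SD, n = 6, 21.6 to 27.2, median 24.2). All KO-empty libraries of *Chrnb1* were above all WT-empty libraries and all KO-DHT libraries above all WT-DHT libraries, and 5 of 6 WT-DHT libraries lay below every WT-empty library. By mean level *Chrnb1* ran in spinalis in the order KO-DHT, then KO-empty, then WT-empty, then WT-DHT, and of the neighbours only KO-empty and WT-empty did not overlap. *Chrnb1* fell with DHT in WT, at −0.39 (SE 0.080), a call lost without the 6 libraries high in *Lars2* (log2 −0.29), and stood at 0.026 (SE 0.079) with DHT in KO, not called. It was called higher in KO against WT, at 0.63 (SE 0.083) with empty implants and 1.04 (SE 0.076) with DHT. The genotype by DHT interaction of *Chrnb1* was 0.41 (SE 0.11), called higher. That interaction call was lost without WT-empty 1, 2, 3 or 5, WT-DHT 2, 3, 4, 5 or 6, KO-empty 2, 3, 4 or 5 or KO-DHT 1, 2, 4 or 5 (log2 0.37 to 0.42), with library size only, with thinned counts, at a threshold of 0.01, without WT-DHT 5 and 6 together (log2 0.36) and without the 6 libraries high in *Lars2* (log2 0.37).

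*Chrnd* encodes the delta subunit and had low counts, from 4 to 93 over all libraries. In gastrocnemius, *Chrnd* averaged 0.986 ± 0.222 CPM in WT-sham (SD, n = 6, 0.672 to 1.22, median 1.01) and 1.23 ± 0.307 CPM in WT-ORX (SD, n = 6, 0.889 to 1.71, median 1.15). Without *Actn3*, *Chrnd* averaged 1.28 ± 0.481 CPM in KO-sham (SD, n = 6, 0.583 to 1.88, median 1.26) and 1.41 ± 0.435 CPM in KO-ORX (SD, n = 5, with 1.89, 1.396, 1.395, 0.727 and 1.65). The groups overlapped in all 4 comparisons. For *Chrnd* the log2 fold changes were 0.32 (SE 0.24) after ORX in WT, 0.14 (SE 0.26) after ORX in KO, 0.36 (SE 0.25) in KO against WT in sham and 0.18 (SE 0.25) in KO against WT after ORX, none called. In spinalis, *Chrnd* averaged 0.808 ± 0.451 CPM in WT-empty (SD, n = 5, with 1.21, 1.36, 0.444, 0.381 and 0.6395) and 0.421 ± 0.292 CPM in WT-DHT (SD, n = 6, 0.0782 to 0.849, median 0.423). In KO, *Chrnd* averaged 1.11 ± 0.444 CPM in KO-empty (SD, n = 5, with 0.855, 1.23, 1.78, 1.07 and 0.608) and 0.991 ± 0.121 CPM in KO-DHT (SD, n = 6, 0.863 to 1.15, median 0.987). All KO-DHT libraries were above all WT-DHT libraries, and the other groups overlapped. In spinalis the *Chrnd* fold changes were log2 −0.98 (SE 0.42) with DHT in WT, −0.17 (SE 0.39) with DHT in KO, 0.47 (SE 0.42) in KO against WT with empty implants and 1.29 (SE 0.40) in KO against WT with DHT, none called. The last of these was called without WT-DHT 5 (log2 1.56), with DESeq2, with limma-voom, at a threshold of 0.05, without WT-DHT 5 and 6 together (log2 1.89) and without the 6 libraries high in *Lars2* (log2 1.96).

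*Chrne* encodes the subunit that replaces the gamma subunit in the adult receptor. In gastrocnemius, *Chrne* averaged 11.04 ± 1.62 CPM in WT-sham (SD, n = 6, 7.95 to 12.4, median 11.6) and 11.8 ± 1.27 CPM in WT-ORX (SD, n = 6, 9.93 to 13.7, median 11.9). Without *Actn3*, *Chrne* averaged 11.5 ± 0.7004 CPM in KO-sham (SD, n = 6, 10.4 to 12.5, median 11.5) and 10.99 ± 1.19 CPM in KO-ORX (SD, n = 5, with 9.88, 10.5, 11.4, 10.3 and 12.9). The groups overlapped, with WT-sham library 5 the lowest. For *Chrne* the log2 fold changes were 0.095 (SE 0.090) after ORX in WT, −0.058 (SE 0.10) after ORX in KO, 0.055 (SE 0.092) in KO against WT in sham and −0.10 (SE 0.10) in KO against WT after ORX, none called. In spinalis, *Chrne* averaged 5.17 ± 1.66 CPM in WT-empty (SD, n = 5, with 6.58, 7.25, 4.64, 3.81 and 3.56) and 4.34 ± 0.974 CPM in WT-DHT (SD, n = 6, 2.85 to 5.46, median 4.45). For KO, *Chrne* was at 5.91 ± 0.754 CPM in KO-empty (SD, n = 5, with 5.86, 6.67, 6.67, 5.12 and 5.21) and 7.01 ± 1.59 CPM in KO-DHT (SD, n = 6, 4.997 to 9.498, median 6.96). Of the KO-DHT libraries, 5 of 6 lay above every WT-DHT library, and 4 of 6 above every KO-empty library. The *Chrne* fold changes were log2 −0.25 (SE 0.19) with DHT in WT, 0.25 (SE 0.19) with DHT in KO and 0.20 (SE 0.20) in KO against WT with empty implants, none called. With DHT, *Chrne* in KO against WT was called higher, at 0.69 (SE 0.18). That call was lost without WT-DHT 2, 3, 4 or 5 or KO-DHT 2, 3, 4 or 6 (log2 0.59 to 0.72) and without the 6 libraries high in *Lars2* (log2 0.77).

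*Musk*, the receptor kinase that organises the synapse, was called in all 8 pairwise comparisons. In gastrocnemius, *Musk* averaged 54.4 ± 7.56 CPM in WT-sham (SD, n = 6, 47.3 to 68.7, median 53.3) and 25.5 ± 4.65 CPM in WT-ORX (SD, n = 6, 19.9 to 32.3, median 23.97). Without *Actn3*, *Musk* averaged 21.6 ± 3.14 CPM in KO-sham (SD, n = 6, 18.2 to 25.3, median 21.4) and 14.1 ± 4.18 CPM in KO-ORX (SD, n = 5, with 17.3, 19.6, 9.56, 12.4 and 11.7). All WT-ORX libraries lay below all WT-sham libraries, all KO-sham libraries below all WT-sham libraries and all KO-ORX libraries below all WT-ORX libraries, while 4 of 5 KO-ORX libraries lay below every KO-sham library. By mean level *Musk* ran in gastrocnemius in the order WT-sham, then WT-ORX, then KO-sham, then KO-ORX, and of the neighbours only WT-sham and WT-ORX did not overlap. After ORX, *Musk* fell in WT, at log2 −1.09 (SE 0.14), and in KO, at −0.63 (SE 0.15). Against WT it was called lower in KO after sham surgery, at −1.33 (SE 0.14), and after ORX, at −0.87 (SE 0.15). The call after ORX in KO was lost without KO-sham 1, 2 or 4 or KO-ORX 3, 4 or 5 (log2 −0.60 to −0.52), with library size only, with thinned counts and with only the groups compared. The genotype by ORX interaction of *Musk* was 0.46 (SE 0.20), not called.

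In spinalis, *Musk* averaged 20.5 ± 4.605 CPM in WT-empty (SD, n = 5, with 20.5, 25.8, 22.6, 13.3 and 20.6) and 84.3 ± 9.39 CPM in WT-DHT (SD, n = 6, 72.1 to 94.8, median 84.5). In KO, *Musk* averaged 12.4 ± 1.77 CPM in KO-empty (SD, n = 5, with 14.1, 13.6, 12.4, 12.6 and 9.49) and 26.1 ± 2.15 CPM in KO-DHT (SD, n = 6, 23.8 to 28.9, median 25.3). All WT-DHT libraries of *Musk* were above all WT-empty libraries, all KO-DHT libraries above all KO-empty libraries and all KO-DHT libraries below all WT-DHT libraries, while 3 of 5 KO-empty libraries lay below every WT-empty library. By mean level *Musk* ran in spinalis in the order WT-DHT, then KO-DHT, then WT-empty, then KO-empty, and of the neighbours only WT-DHT and KO-DHT did not overlap. With DHT *Musk* rose in WT, at log2 2.04 (SE 0.13), and in KO, at 1.07 (SE 0.13). Against WT, *Musk* in KO was called lower, at −0.72 (SE 0.13) with empty implants and −1.69 (SE 0.12) with DHT. The first of these was not called with only the groups compared and without the 6 libraries high in *Lars2* (log2 −0.55). The genotype by DHT interaction of *Musk* was −0.97 (SE 0.17), called lower: the rise was smaller in KO.

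*Dok7* encodes the adaptor that activates MuSK from inside the fibre. In gastrocnemius, *Dok7* averaged 12.3 ± 1.203 CPM in WT-sham (SD, n = 6, 10.4 to 13.6, median 12.5) and 9.62 ± 0.990 CPM in WT-ORX (SD, n = 6, 8.47 to 10.7, median 9.64). Without *Actn3*, *Dok7* averaged 10.1 ± 2.02 CPM in KO-sham (SD, n = 6, 7.95 to 13.9, median 9.74) and 8.61 ± 1.52 CPM in KO-ORX (SD, n = 5, with 9.23, 10.4, 6.37, 9.07 and 7.97). Of the WT-ORX libraries, 4 of 6 lay below every WT-sham library, and 5 of 6 KO-sham libraries did so too, with overlap in every comparison. The *Dok7* fold changes were log2 −0.36 (SE 0.11) after ORX in WT, −0.24 (SE 0.12) after ORX in KO, −0.29 (SE 0.11) in KO against WT in sham and −0.17 (SE 0.12) in KO against WT after ORX, none called. The first was called with only the groups compared and at a threshold of 0.05. In spinalis, *Dok7* averaged 13.1 ± 2.74 CPM in WT-empty (SD, n = 5, with 14.6, 13.1, 16.8, 10.03 and 10.9) and 20.6 ± 4.096 CPM in WT-DHT (SD, n = 6, 16.5 to 26.9, median 20.2). For KO, *Dok7* was at 13.9 ± 1.97 CPM in KO-empty (SD, n = 5, with 16.02, 13.2, 13.01, 11.4 and 15.8) and 17.9 ± 1.58 CPM in KO-DHT (SD, n = 6, 16.6 to 20.9, median 17.5). All KO-DHT libraries lay above all KO-empty libraries and 5 of 6 WT-DHT libraries above every WT-empty library. *Dok7* rose with DHT in WT, at 0.66 (SE 0.13). It was not called at log2 0.37 (SE 0.13) with DHT in KO, 0.091 (SE 0.14) in KO against WT with empty implants and −0.20 (SE 0.13) in KO against WT with DHT.

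*Rapsn* encodes rapsyn, which ties the receptors to the cytoskeleton. In gastrocnemius, *Rapsn* averaged 20.8 ± 2.12 CPM in WT-sham (SD, n = 6, 16.8 to 22.9, median 21.4) and 20.9 ± 1.32 CPM in WT-ORX (SD, n = 6, 19.6 to 23.1, median 20.9). Without *Actn3*, *Rapsn* averaged 19.7 ± 1.98 CPM in KO-sham (SD, n = 6, 18.2 to 23.5, median 19.2) and 18.02 ± 1.74 CPM in KO-ORX (SD, n = 5, with 16.7, 19.2, 16.1, 20.3 and 17.7). The groups overlapped in all 4 comparisons, though 4 of 5 KO-ORX libraries lay below every WT-ORX library. For *Rapsn* the log2 fold changes were 0.014 (SE 0.073) after ORX in WT, −0.13 (SE 0.079) after ORX in KO, −0.073 (SE 0.074) in KO against WT in sham and −0.22 (SE 0.078) in KO against WT after ORX, none called. In spinalis, *Rapsn* averaged 22.03 ± 0.9701 CPM in WT-empty (SD, n = 5, with 22.1, 23.0, 20.4, 22.1 and 22.5) and 21.99 ± 1.82 CPM in WT-DHT (SD, n = 6, 19.04 to 23.9, median 22.5). In KO, *Rapsn* averaged 18.7 ± 3.03 CPM in KO-empty (SD, n = 5, with 17.1, 22.5, 16.1, 16.2 and 21.3) and 22.6 ± 2.19 CPM in KO-DHT (SD, n = 6, 19.6 to 25.4, median 22.6). The groups again overlapped, with 3 of 5 KO-empty libraries below every WT-empty library. In spinalis *Rapsn* stood at log2 −0.0035 (SE 0.089) with DHT in WT, 0.27 (SE 0.089) with DHT in KO, −0.24 (SE 0.093) in KO against WT with empty implants and 0.038 (SE 0.085) in KO against WT with DHT, none called. The second of these was called at a threshold of 0.05.

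*Ache* encodes the enzyme that breaks down acetylcholine. In gastrocnemius, *Ache* averaged 14.8 ± 2.28 CPM in WT-sham (SD, n = 6, 11.7 to 18.8, median 14.5) and 18.7 ± 3.45 CPM in WT-ORX (SD, n = 6, 14.7 to 22.99, median 17.8). Without *Actn3*, *Ache* averaged 19.4 ± 4.53 CPM in KO-sham (SD, n = 6, 13.1 to 24.5, median 19.7) and 20.2 ± 2.96 CPM in KO-ORX (SD, n = 5, with 17.2, 16.97, 21.3, 21.5 and 23.7). The groups overlapped in all 4 comparisons, with 3 of 6 KO-sham libraries above every WT-sham library. For *Ache* the log2 fold changes were 0.34 (SE 0.14) after ORX in WT, 0.064 (SE 0.14) after ORX in KO, 0.39 (SE 0.14) in KO against WT in sham and 0.11 (SE 0.14) in KO against WT after ORX, none called. In spinalis, *Ache* averaged 15.8 ± 2.72 CPM in WT-empty (SD, n = 5, with 14.4, 20.4, 15.5, 13.4 and 15.1) and 15.99 ± 2.101 CPM in WT-DHT (SD, n = 6, 14.1 to 19.9, median 15.6). For KO, *Ache* was at 17.4 ± 2.43 CPM in KO-empty (SD, n = 5, with 17.4, 20.9, 18.1, 14.3 and 16.3) and 31.7 ± 3.18 CPM in KO-DHT (SD, n = 6, 27.5 to 35.7, median 31.2). All 6 KO-DHT libraries lay above all KO-empty and all WT-DHT libraries, while the other groups overlapped. By mean level *Ache* ran in spinalis in the order KO-DHT, then KO-empty, then WT-DHT, then WT-empty, and of the neighbours only KO-DHT and KO-empty did not overlap. *Ache* rose with DHT in KO, at 0.86 (SE 0.11), and was called higher in KO against WT with DHT, at 0.99 (SE 0.10). With DHT in WT it stood at 0.016 (SE 0.11) and in KO against WT with empty implants at 0.14 (SE 0.11), neither called. The genotype by DHT interaction of *Ache* was 0.85 (SE 0.15), called higher.

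**Figure D2:**
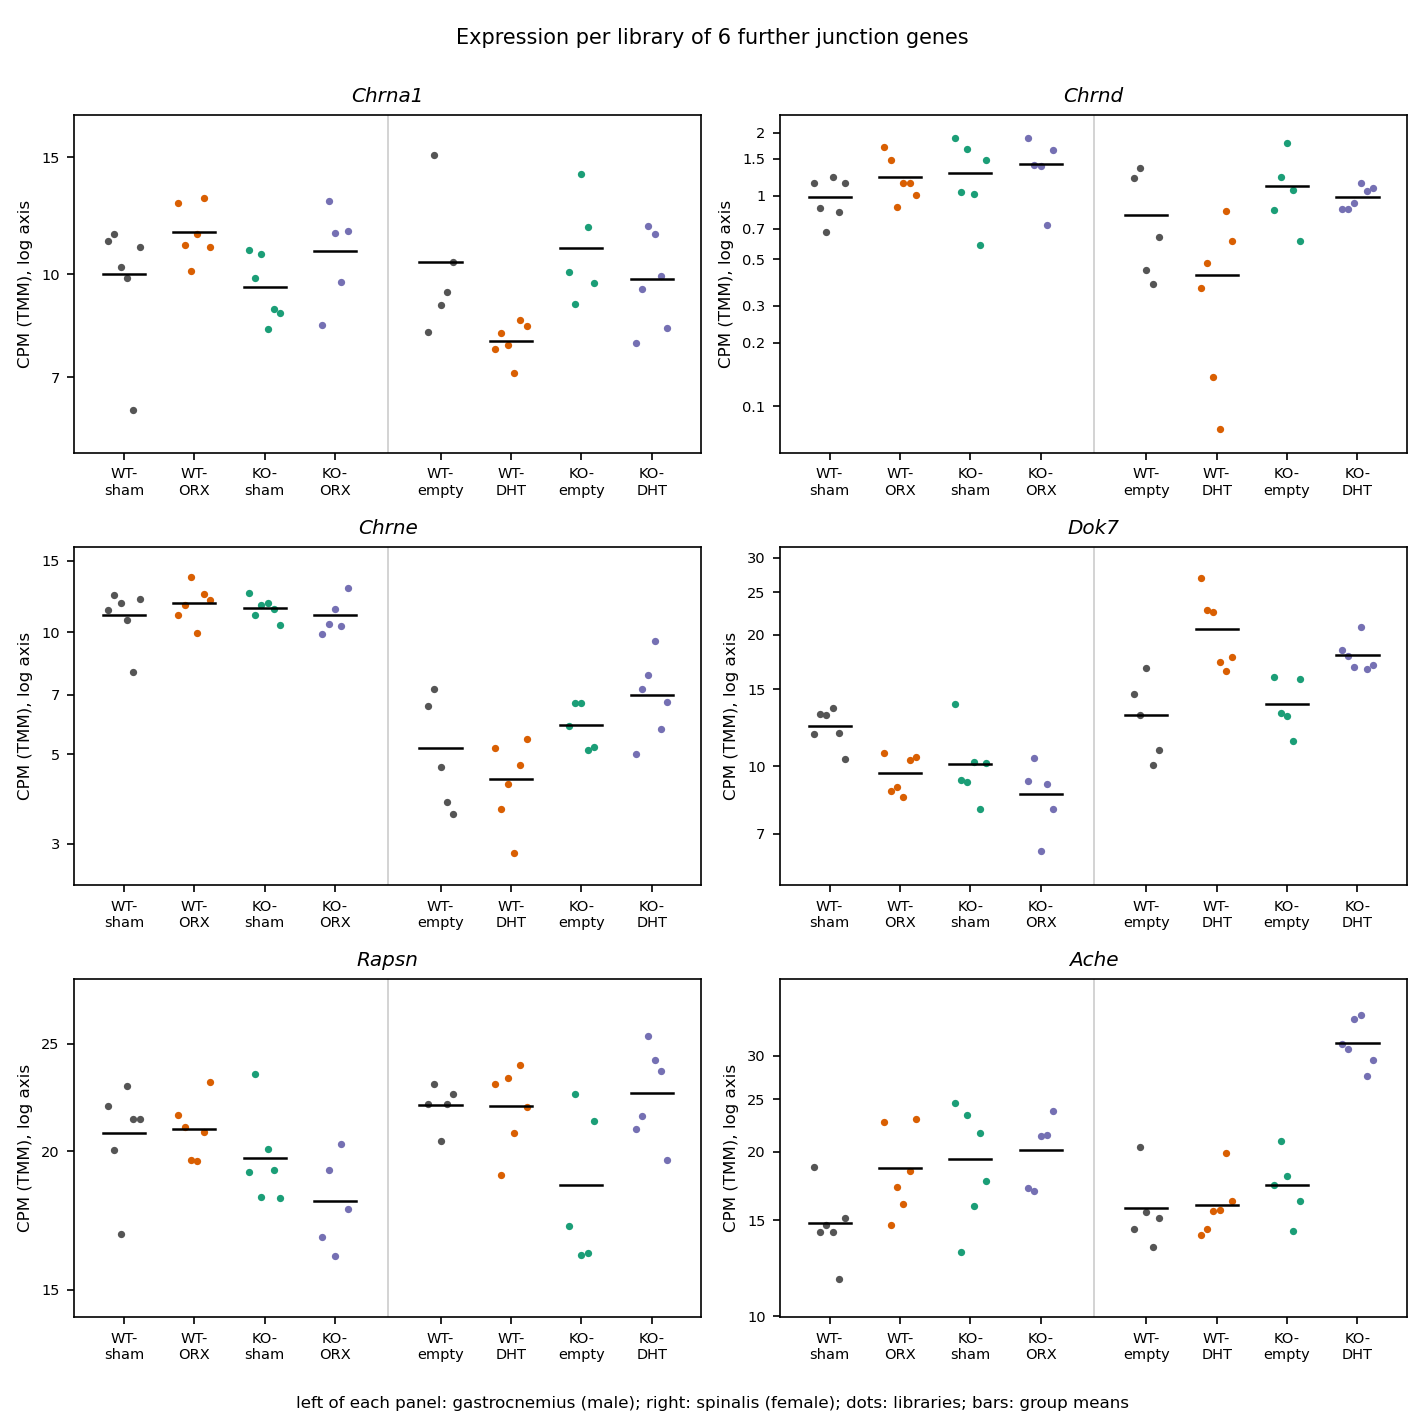
CPM per library (dots, log axis) and group means (bars) of 6 of the genes, with the 4 gastrocnemius groups left and the 4 spinalis groups right in each panel. All 6 KO-DHT dots of *Ache* stand above those of KO-empty and WT-DHT.

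*Fgfbp1* encodes a secreted protein that releases fibroblast growth factors from the matrix. In gastrocnemius, *Fgfbp1* averaged 7.16 ± 1.56 CPM in WT-sham (SD, n = 6, 4.84 to 9.06, median 7.22) and 11.9 ± 1.53 CPM in WT-ORX (SD, n = 6, 10.1 to 14.1, median 11.8). Without *Actn3*, *Fgfbp1* averaged 4.85 ± 1.23 CPM in KO-sham (SD, n = 6, 2.797 to 6.29, median 4.86) and 5.596 ± 3.89 CPM in KO-ORX (SD, n = 5, with 5.12, 3.79, 12.4, 3.22 and 3.41). All WT-ORX libraries lay above all WT-sham libraries, and 4 of 5 KO-ORX libraries lay below every WT-ORX library. By mean level *Fgfbp1* ran in gastrocnemius in the order WT-ORX, then WT-sham, then KO-ORX, then KO-sham, and of the neighbours only WT-ORX and WT-sham did not overlap. KO-ORX library 3, with 597 counts, was the only KO-ORX library not below them. It was also the highest KO-ORX library for *Lars2*, at 412 CPM against 131 to 163 in the other 4. Log2 fold changes of *Fgfbp1* were 0.74 (SE 0.24) after ORX in WT, 0.22 (SE 0.27) after ORX in KO and −0.56 (SE 0.25) in KO against WT in sham, none called. The first was called without KO-ORX 3 (log2 0.74), with limma-voom, with only the groups compared and at a threshold of 0.05. After ORX, *Fgfbp1* in KO against WT was called lower, at −1.08 (SE 0.26). That call was lost without KO-sham 2, KO-ORX 1, 2, 4 or 5 or WT-ORX 1, 3, 4, 5 or 6 (log2 −1.11 to −0.93) and with only the groups compared. Without KO-ORX 3, *Fgfbp1* was at log2 −0.33 after ORX in KO, at −1.63 in KO against WT after ORX and at −1.07 in the genotype by ORX interaction, against −0.52 (SE 0.36) with all libraries.

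In spinalis, *Fgfbp1* averaged 14.99 ± 2.72 CPM in WT-empty (SD, n = 5, with 16.9, 12.8, 16.9, 17.1 and 11.4) and 0.784 ± 0.0426 CPM in WT-DHT (SD, n = 6, 0.721 to 0.849, median 0.785). In KO, *Fgfbp1* averaged 1.89 ± 0.764 CPM in KO-empty (SD, n = 5, with 1.15, 2.16, 1.32, 3.06 and 1.75) and 0.4498 ± 0.174 CPM in KO-DHT (SD, n = 6, 0.201 to 0.658, median 0.4402). All WT-DHT libraries of *Fgfbp1* lay below all WT-empty libraries, all KO-DHT libraries below all KO-empty libraries and all KO-empty libraries below all WT-empty libraries, and all KO-DHT libraries below all WT-DHT libraries. By mean level *Fgfbp1* ran in spinalis in the order WT-empty, then KO-empty, then WT-DHT, then KO-DHT, and no neighbours overlapped. *Fgfbp1* fell with DHT, at log2 −4.26 (SE 0.23) in WT, the largest in size among the 10, and −2.03 (SE 0.24) in KO. Its counts went down to 7 in KO-DHT, so with at least 10 counts asked of every library it is not tested in spinalis. KO against WT was called lower with empty implants, at −2.99 (SE 0.22), and not called with DHT, at −0.76 (SE 0.25). The latter was called at a threshold of 0.05. The genotype by DHT interaction of *Fgfbp1* was 2.23 (SE 0.33), called higher: the fall was smaller in KO. Of 4 keratinocyte markers only *Krt10* was measured here, at 1.296 ± 0.415 CPM in WT-empty, 1.701 ± 0.481 in WT-DHT, 1.51 ± 0.4095 in KO-empty and 1.58 ± 0.2295 in KO-DHT (*Krt5*, *Krt14* and *Krt1* were not analysed here). Its part in the result was not tested.

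*Ngfr* encodes the low-affinity neurotrophin receptor, made by Schwann cells, pericytes and regenerating muscle among others. In gastrocnemius, *Ngfr* averaged 0.525 ± 0.169 CPM in WT-sham (SD, n = 6, 0.308 to 0.697, median 0.5704) and 1.11 ± 0.396 CPM in WT-ORX (SD, n = 6, 0.395 to 1.56, median 1.19). Without *Actn3*, *Ngfr* averaged 0.777 ± 0.308 CPM in KO-sham (SD, n = 6, 0.267 to 1.102, median 0.813) and 1.63 ± 0.773 CPM in KO-ORX (SD, n = 5, with 0.424, 1.36, 2.42, 1.89 and 2.06). Of the WT-ORX libraries, 5 of 6 lay above every WT-sham library, and 4 of 5 KO-ORX libraries lay above every KO-sham library, with overlap in every comparison and WT-ORX library 3 the lowest of its group. For *Ngfr* the log2 fold changes were 1.09 (SE 0.34) after ORX in WT, 1.09 (SE 0.35) after ORX in KO, 0.57 (SE 0.36) in KO against WT in sham and 0.56 (SE 0.33) in KO against WT after ORX, none called. The first was called at a threshold of 0.05. The second was called without KO-ORX 1 (log2 1.32) and at a threshold of 0.05. In spinalis, *Ngfr* averaged 3.16 ± 2.26 CPM in WT-empty (SD, n = 5, with 0.755, 2.64, 5.701, 1.35 and 5.34) and 0.392 ± 0.165 CPM in WT-DHT (SD, n = 6, 0.148 to 0.612, median 0.407). For KO, *Ngfr* was at 3.94 ± 2.91 CPM in KO-empty (SD, n = 5, with 3.34, 7.67, 6.19, 1.05 and 1.47) and 0.723 ± 0.2503 CPM in KO-DHT (SD, n = 6, 0.526 to 1.21, median 0.648). All WT-DHT libraries lay below all WT-empty libraries and 5 of 6 KO-DHT libraries below every KO-empty library. By mean level *Ngfr* ran in spinalis in the order KO-empty, then WT-empty, then KO-DHT, then WT-DHT, and all neighbours overlapped. *Ngfr* fell with DHT, at log2 −3.04 (SE 0.52) in WT and −2.46 (SE 0.49) in KO. Both calls were lost with limma-voom, the second also without the 6 libraries high in *Lars2* (−2.59), and with at least 10 counts asked of every library *Ngfr* is not tested in either muscle. Against WT, *Ngfr* in KO was not called, at log2 0.32 (SE 0.47) with empty implants and 0.90 (SE 0.54) with DHT.

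**Figure D3:**
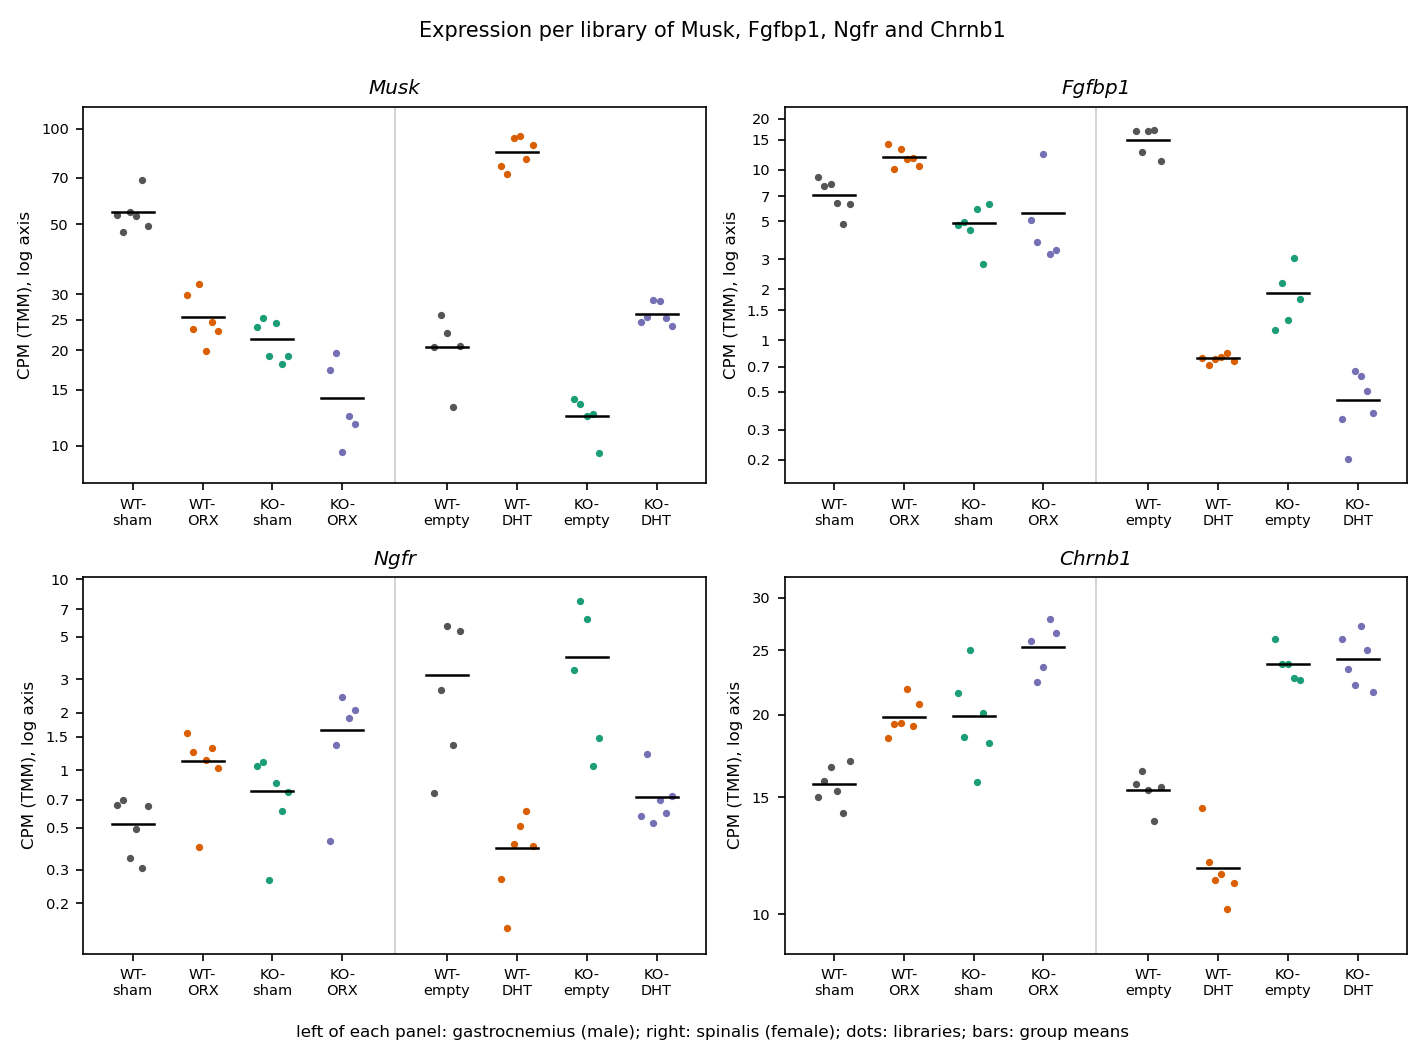
CPM per library (dots, log axis) and group means (bars) of *Musk*, *Fgfbp1*, *Ngfr* and *Chrnb1*, with the 4 gastrocnemius groups left and the 4 spinalis groups right in each panel. The 6 WT-DHT dots of *Musk* stand above all WT-empty dots, and those of *Fgfbp1* stand below.

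Marker sums stand beside these results (mean ± SD) here and in the next paragraph, and their part in the result was not tested. Medians are of the list's log2 fold changes. The 8 Schwann cell markers, led by *Mbp*, summed to 50.5 ± 6.405 CPM in WT-empty, 38.5 ± 8.52 in WT-DHT, 53.1 ± 2.43 in KO-empty and 46.1 ± 12.8 in KO-DHT. In gastrocnemius the same 8 summed to 67.2 ± 22.4 CPM in WT-sham, 59.1 ± 9.19 in WT-ORX, 60.7 ± 13.5 in KO-sham and 58.5 ± 12.5 in KO-ORX. None was called. Of 6 motor axon markers only *Prph* was measured here, in gastrocnemius, and none in spinalis (*Nefl*, *Nefm*, *Nefh*, *Chat* and *Snap25* were not analysed here). *Prph* averaged 0.4404 ± 0.122 CPM in WT-sham, 0.697 ± 0.173 in WT-ORX, 0.306 ± 0.162 in KO-sham and 0.463 ± 0.1196 in KO-ORX. The 4 pericyte and smooth muscle markers, led by *Rgs5*, came to 409.8 ± 37.2 CPM in WT-empty, 531 ± 33.6 in WT-DHT, 396 ± 42.8 in KO-empty and 484 ± 29.8 in KO-DHT. All sums with DHT lay above all with empty implants, in WT and in KO. Pericyte calls were 1 higher with DHT in WT (median 0.20) and 1 higher with DHT in KO (median 0.22). The 4 satellite cell markers, led by *Chodl*, came to 17.9 ± 3.77 CPM in WT-empty, 12.4 ± 2.06 in WT-DHT, 22.7 ± 2.64 in KO-empty and 19.3 ± 2.41 in KO-DHT, with all KO-DHT sums above all WT-DHT sums. In gastrocnemius they came to 21.6 ± 1.79 CPM in WT-sham, 23.8 ± 1.04 in WT-ORX, 22.6 ± 1.08 in KO-sham and 27.7 ± 2.36 in KO-ORX. Satellite cell calls were 1 higher in KO-sham against WT-sham (median 0.62) and 3 higher in KO-DHT against WT-DHT (median 0.96).

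The 4 endothelial markers, led by *Pecam1*, summed to 145 ± 19.3 CPM in WT-empty, 192 ± 16.8 in WT-DHT, 165 ± 16.4 in KO-empty and 195 ± 25.8 in KO-DHT. All WT-DHT sums lay above all WT-empty sums. Endothelial calls were 2 higher with DHT in WT (median 0.42) and 1 higher with DHT in KO (median 0.23). The 4 adipocyte markers, led by *Cfd*, stood at 464 ± 137 CPM in WT-empty, 231 ± 131 in WT-DHT, 507 ± 116 in KO-empty and 332 ± 134 in KO-DHT. Adipocyte calls were 1 lower with DHT in WT (median −0.53). The 3 tendon markers, led by *Fmod*, reached 243 ± 74.5 CPM in WT-sham, 256 ± 63.6 in WT-ORX, 133 ± 47.4 in KO-sham and 295 ± 112 in KO-ORX. Tendon calls were 1 higher after ORX in KO (median 0.71) and 1 lower in KO-DHT against WT-DHT (median −0.73). Fibroblast calls (4 markers) were 1 lower after ORX in WT (median −0.13), 1 higher and 1 lower with DHT in WT (median 0.16) and 1 higher with DHT in KO (median −0.052). Macrophage calls (4 markers) were 1 lower after ORX in WT (median −0.000077), 1 lower in KO-sham against WT-sham (median −0.24) and 1 lower in KO-ORX against WT-ORX (median −0.19). Muscle fibre calls (6 markers) were 1 higher after ORX in WT (median 0.056), 1 lower after ORX in KO (median −0.11), 1 lower in KO-sham against WT-sham (median −0.079), 3 lower in KO-ORX against WT-ORX (median −0.30), 1 lower in KO-empty against WT-empty (median −0.26) and 1 lower in KO-DHT against WT-DHT (median −0.12). None of the 3 blood markers was called.

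Genes of 7 further lists, also drawn up with earlier results of these data known, place the 10 in their pathways, and their q are adjusted p of edgeR over all genes. Beside a call that an alternative ended, the range of its fold change is over all alternatives. Comparisons not named for a gene of these lists were not called for it. A call in WT or KO alone is no test of a difference between them. Over all genes, the median log2 fold changes of the 10 comparisons lay between −0.011 and 0.014. The shares of all genes called are those given above for each comparison, at most 6.63% higher and 6.51% lower. *Chrng*, the gamma subunit of the embryonic receptor, was not analysed here.

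Of 7 genes listed for the agrin path to MuSK, 7 were tested. Calls were 1 higher and 1 lower after ORX in WT (median −0.083), 0 higher and 1 lower after ORX in KO (median 0.068), 1 higher and 0 lower in KO-sham against WT-sham (median 0.051), 0 higher and 1 lower with DHT in WT (median −0.011), 2 higher and 0 lower in KO-empty against WT-empty (median 0.059), 3 higher and 0 lower in KO-DHT against WT-DHT (median 0.23), 1 higher and 0 lower in the DHT interaction (median 0.016), with 0 in the other 3 (medians 0.0039 to 0.056). *Pak1*, a kinase downstream of MuSK, was at log2 0.75 (SE 0.13, edgeR q = 3.3e-04) after ORX in WT, 0.78 (SE 0.13, q = 2.5e-04) in KO-sham against WT-sham, −0.45 (SE 0.12, q = 0.0079) with DHT in WT, 0.59 (SE 0.12, q = 0.0034) in KO-empty against WT-empty, 1.51 (SE 0.11, q = 7.1e-10) in KO-DHT against WT-DHT and 0.92 (SE 0.17, q = 0.0014) in the DHT interaction. *Dnaja3*, a co-chaperone bound to MuSK, was at log2 −0.20 (SE 0.044, edgeR q = 0.0028) after ORX in WT, −0.32 (SE 0.046, q = 4.1e-05) after ORX in KO and 0.23 (SE 0.059, q = 0.0076) in KO-DHT against WT-DHT. *Lrp4*, the agrin receptor, was at log2 0.48 (SE 0.10, edgeR q = 0.0027) in KO-empty against WT-empty and 0.36 (SE 0.089, q = 0.0054) in KO-DHT against WT-DHT. In gastrocnemius *Lrp4* was not called, at −0.30 in KO-sham against WT-sham and 0.30 after ORX in KO. Both were called at a threshold of 0.05 and without KO-sham 1, and the latter also with library size only. *Agrn*, agrin, was called nowhere, with edgeR fold changes from −0.059 to 0.23. Alternatives ended the calls of *Pak1* with DHT in WT (without WT-empty 2, 3, 4 or 5 or WT-DHT 1, 2 or 4, without the 6 libraries high in *Lars2*, at −0.56 to −0.41), *Pak1* in KO-empty against WT-empty (without WT-empty 1 or 4 or KO-empty 3, at 0.52 to 0.67), *Dnaja3* after ORX in WT (with library size only, at −0.22 to −0.16), *Dnaja3* in KO-DHT against WT-DHT (without WT-DHT 1, 2, 4 or 5 or KO-DHT 1, 2, 3 or 5, with only the groups compared, without WT-DHT 5 and 6 together, without the 6 libraries high in *Lars2*, at 0.19 to 0.31), *Lrp4* in KO-empty against WT-empty (without KO-empty 3, without the 6 libraries high in *Lars2*, at 0.41 to 0.52) and *Lrp4* in KO-DHT against WT-DHT (without WT-DHT 1, 2 or 4 or KO-DHT 3, 5 or 6, with only the groups compared, without WT-DHT 5 and 6 together, without the 6 libraries high in *Lars2*, at 0.28 to 0.45).

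Of 7 genes listed for neuregulin, its receptors and ETS factors, 6 were tested (*Nrg1* not analysed here). Calls were 1 higher and 0 lower after ORX in WT (median −0.011), 0 higher and 1 lower with DHT in WT (median −0.011), with 0 in the other 8 (medians −0.020 to 0.15). *Etv5*, an ETS factor of synaptic nuclei, was at log2 0.32 (SE 0.079, edgeR q = 0.0077) after ORX in WT and −0.50 (SE 0.13, q = 0.0079) with DHT in WT. Alternatives ended the calls of *Etv5* after ORX in WT (without KO-sham 5, WT-sham 1, 2, 3, 4 or 6 or WT-ORX 1, 2, 3, 5 or 6, with thinned counts, at 0.27 to 0.36) and *Etv5* with DHT in WT (without WT-empty 1, 2, 3 or 5 or WT-DHT 1, 2, 3, 4, 5 or 6, with limma-voom, without WT-DHT 5 and 6 together, without the 6 libraries high in *Lars2*, at −0.57 to −0.43).

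Of 13 genes listed for the synaptic matrix and scaffold, 13 were tested. Calls were 1 higher and 0 lower after ORX in WT (median −0.0018), 1 higher and 0 lower after ORX in KO (median 0.044), 1 higher and 1 lower in KO-sham against WT-sham (median −0.080), 1 higher and 1 lower in KO-ORX against WT-ORX (median 0.085), 2 higher and 3 lower with DHT in WT (median 0.089), 0 higher and 1 lower with DHT in KO (median 0.059), 0 higher and 1 lower in KO-empty against WT-empty (median 0.014), 0 higher and 1 lower in KO-DHT against WT-DHT (median 0.065), 1 higher and 0 lower in the DHT interaction (median 0.023), with 0 in the other 1 (median 0.16). *Sntb1*, a syntrophin, was at log2 −0.81 (SE 0.11, edgeR q = 1.1e-05) in KO-sham against WT-sham, −0.58 (SE 0.11, q = 0.0013) in KO-ORX against WT-ORX, −1.28 (SE 0.14, q = 2.3e-07) with DHT in WT, −0.88 (SE 0.15, q = 4.3e-04) in KO-empty against WT-empty and 0.76 (SE 0.20, q = 0.035) in the DHT interaction. *Bche*, butyrylcholinesterase, was at log2 0.44 (SE 0.10, edgeR q = 0.0083) in KO-ORX against WT-ORX and −0.88 (SE 0.12, q = 3.8e-06) with DHT in WT. *Lamb2*, the synaptic laminin chain, was at log2 0.41 (SE 0.077, edgeR q = 9.6e-04) after ORX in KO, −0.41 (SE 0.082, q = 7.5e-04) with DHT in WT and −0.52 (SE 0.082, q = 1.4e-04) with DHT in KO. *Macf1*, a linker of microtubules at the synapse, was at log2 −0.33 (SE 0.062, edgeR q = 4.0e-04) in KO-DHT against WT-DHT. *Dtna*, a dystrobrevin, was at log2 0.19 (SE 0.041, edgeR q = 0.0030) after ORX in WT and 0.17 (SE 0.042, q = 0.0081) in KO-sham against WT-sham. *Lama4*, a laminin chain, was at log2 0.37 (SE 0.088, edgeR q = 0.0039) with DHT in WT. *Colq*, the collagen tail of acetylcholinesterase, was called nowhere, with edgeR fold changes from −0.37 to 0.34. Calls were lost for *Sntb1* in the DHT interaction (without WT-empty 1, 3 or 4, WT-DHT 1, 4 or 6, KO-empty 1, 2 or 5 or KO-DHT 3, at a threshold of 0.01, without the 6 libraries high in *Lars2*, at 0.60 to 0.84), *Bche* in KO-ORX against WT-ORX (without KO-sham 3 or 6, KO-ORX 1, 2, 3 or 5, WT-sham 3 or 4 or WT-ORX 3, 4, 5 or 6, with limma-voom, at 0.41 to 0.50), *Lamb2* after ORX in KO (with only the groups compared, at 0.37 to 0.52), *Lamb2* with DHT in WT (without the 6 libraries high in *Lars2*, at −0.47 to −0.35), *Macf1* in KO-DHT against WT-DHT (with library size only, at −0.36 to −0.25), *Dtna* after ORX in WT (without WT-ORX 3 or 5, with thinned counts, at 0.17 to 0.23), *Dtna* in KO-sham against WT-sham (without KO-sham 1, 3, 5 or 6, KO-ORX 4 or 5, WT-sham 1, 2, 4, 5 or 6 or WT-ORX 1, with library size only, with thinned counts, with only the groups compared, at 0.14 to 0.19), *Lama4* with DHT in WT (without WT-empty 1 or 2 or WT-DHT 2 or 5, with library size only, with only the groups compared, without WT-DHT 5 and 6 together, without the 6 libraries high in *Lars2*, at 0.26 to 0.41) and *Nid2* at 0.43 with DHT in WT (without WT-empty 1, 2, 3 or 5 or WT-DHT 1, 2, 3, 4 or 5, with library size only, without WT-DHT 5 and 6 together, without the 6 libraries high in *Lars2*, at 0.36 to 0.51).

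Of 6 genes listed for synaptic nuclei, 5 were tested (*Lrfn5* not analysed here). Calls were 1 higher and 0 lower after ORX in WT (median 0.093), 1 higher and 0 lower after ORX in KO (median 0.17), 1 higher and 0 lower in KO-sham against WT-sham (median 0.012), 1 higher and 0 lower in KO-ORX against WT-ORX (median 0.059), 1 higher and 2 lower with DHT in WT (median −0.39), 1 higher and 0 lower with DHT in KO (median −0.028), 3 higher and 0 lower in KO-DHT against WT-DHT (median 0.36), 2 higher and 0 lower in the DHT interaction (median 0.36), with 0 in the other 2 (medians −0.0028 to 0.042). *Gramd1b*, a sterol carrier, was at log2 0.99 (SE 0.15, edgeR q = 4.8e-05) after ORX in WT, 1.21 (SE 0.15, q = 6.0e-06) after ORX in KO, 0.90 (SE 0.15, q = 2.8e-04) in KO-sham against WT-sham, 1.11 (SE 0.15, q = 1.9e-05) in KO-ORX against WT-ORX, −1.45 (SE 0.16, q = 1.8e-07) with DHT in WT, 1.51 (SE 0.15, q = 7.8e-08) in KO-DHT against WT-DHT and 1.01 (SE 0.22, q = 0.0078) in the DHT interaction. *Prkar1a*, a regulatory subunit of protein kinase A, was at log2 −0.39 (SE 0.081, edgeR q = 0.0011) with DHT in WT and 0.36 (SE 0.077, q = 0.0016) in KO-DHT against WT-DHT. *Vav3*, a signalling protein, was at log2 0.63 (SE 0.13, edgeR q = 0.0013) with DHT in WT. *Ufsp1*, a UFM1 peptidase, was at log2 0.60 (SE 0.14, edgeR q = 0.0092) with DHT in KO, 0.60 (SE 0.14, q = 0.0026) in KO-DHT against WT-DHT and 0.75 (SE 0.20, q = 0.043) in the DHT interaction. Alternatives ended the calls of *Ufsp1* with DHT in KO (without WT-empty 3, WT-DHT 1, 3, 4 or 6, KO-empty 1, 3, 4 or 5 or KO-DHT 1, 2, 3, 4 or 5, with at least 10 counts in every library, with only the groups compared, without the 6 libraries high in *Lars2*, at 0.54 to 0.69) and *Ufsp1* in the DHT interaction (without WT-empty 1, 2 or 3, WT-DHT 1, 2, 3 or 4, KO-empty 1, 3, 4 or 5 or KO-DHT 1, 3 or 4, at a threshold of 0.01, without the 6 libraries high in *Lars2*, at 0.64 to 0.90).

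Of 13 genes listed for the denervation response, 13 were tested. Calls were 3 higher and 1 lower after ORX in WT (median 0.11), 2 higher and 1 lower after ORX in KO (median 0.38), 0 higher and 4 lower with DHT in WT (median −0.40), 1 higher and 4 lower with DHT in KO (median −0.39), 2 higher and 1 lower in KO-DHT against WT-DHT (median 0.062), with 0 in the other 5 (medians −0.077 to 0.20). *Ncam1*, a cell adhesion molecule, was at log2 −0.84 (SE 0.12, edgeR q = 8.5e-06) with DHT in WT and −1.07 (SE 0.12, q = 9.4e-07) with DHT in KO. *Gadd45a*, a stress-induced nuclear protein, was at log2 0.66 (SE 0.15, edgeR q = 0.0038) after ORX in WT, −0.89 (SE 0.12, q = 3.2e-06) with DHT in WT and −0.61 (SE 0.12, q = 0.0012) with DHT in KO. *Dach2*, a repressor of myogenin, was at log2 −1.05 (SE 0.20, edgeR q = 6.9e-04) after ORX in WT, −0.89 (SE 0.21, q = 0.0065) after ORX in KO and 1.35 (SE 0.21, q = 1.6e-04) with DHT in KO. *Myog*, myogenin, was at log2 0.80 (SE 0.14, edgeR q = 3.3e-04) after ORX in WT, 0.71 (SE 0.15, q = 0.0026) after ORX in KO, −1.06 (SE 0.24, q = 0.0025) with DHT in WT and 0.97 (SE 0.23, q = 0.0039) in KO-DHT against WT-DHT. *Ampd3*, an AMP deaminase, was at log2 0.43 (SE 0.078, edgeR q = 4.3e-04) after ORX in WT, 0.38 (SE 0.082, q = 0.0033) after ORX in KO, −0.55 (SE 0.11, q = 6.5e-04) with DHT in WT and 0.39 (SE 0.10, q = 0.0087) in KO-DHT against WT-DHT. *Myod1*, a myogenic factor, was at log2 −0.85 (SE 0.19, edgeR q = 0.0021) in KO-DHT against WT-DHT. Calls were lost for *Gadd45a* after ORX in WT (without WT-sham 4 or 5 or WT-ORX 3 or 5, at 0.58 to 0.74), *Dach2* after ORX in KO (without KO-sham 2, 4 or 6 or KO-ORX 3, 4 or 5, with library size only, with only the groups compared, at −1.14 to −0.74), *Myog* after ORX in KO (without KO-ORX 2, with only the groups compared, at 0.52 to 0.82), *Myog* in KO-DHT against WT-DHT (without WT-DHT 1, 3 or 6 or KO-DHT 1, 3 or 4, with only the groups compared, without the 6 libraries high in *Lars2*, at 0.84 to 1.101), *Ampd3* after ORX in KO (without KO-sham 2 or 3 or KO-ORX 1 or 5, with only the groups compared, at 0.34 to 0.48), *Ampd3* with DHT in WT (without the 6 libraries high in *Lars2*, at −0.63 to −0.47), *Ampd3* in KO-DHT against WT-DHT (without WT-empty 3, WT-DHT 3, 4, 5 or 6, KO-empty 1, 2, 3 or 5 or KO-DHT 2, 3, 4, 5 or 6, with limma-voom, with library size only, with thinned counts, with only the groups compared, without WT-DHT 5 and 6 together, without the 6 libraries high in *Lars2*, at 0.33 to 0.47), *Cdkn1a* at −1.51 with DHT in KO (without KO-empty 1, 3 or 4 or KO-DHT 2, 3, 5 or 6, without the 6 libraries high in *Lars2*, at −1.65 to −1.34) and *Myh8* at −1.38 with DHT in KO (without KO-empty 1 or 3, with only the groups compared, without the 6 libraries high in *Lars2*, at −1.55 to −1.08).

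Of 14 genes listed for FGF ligands, receptors and binding proteins, 13 were tested (*Fgf22* not analysed here). Calls were 0 higher and 2 lower with DHT in WT (median −0.0094), 1 higher and 0 lower with DHT in KO (median 0.079), 0 higher and 1 lower in KO-empty against WT-empty (median −0.17), 2 higher and 1 lower in KO-DHT against WT-DHT (median 0.092), 1 higher and 0 lower in the DHT interaction (median 0.093), with 0 in the other 5 (medians −0.15 to 0.0073). *Fgfr1*, a receptor, was at log2 −0.41 (SE 0.077, edgeR q = 4.0e-04) with DHT in WT, 0.54 (SE 0.074, q = 6.8e-06) in KO-DHT against WT-DHT and 0.48 (SE 0.11, q = 0.010) in the DHT interaction. *Fgf2*, a ligand, was at log2 −0.74 (SE 0.12, edgeR q = 7.0e-05) with DHT in WT and −0.58 (SE 0.13, q = 0.0048) in KO-empty against WT-empty. *Fgfr4*, a receptor, was at log2 0.83 (SE 0.19, edgeR q = 0.0026) in KO-DHT against WT-DHT. *Fgf13*, an intracellular FGF, was at log2 0.35 (SE 0.079, edgeR q = 0.0051) with DHT in KO. *Fgf7*, a ligand bound by FGFBP1, was at log2 −0.82 (SE 0.21, edgeR q = 0.0070) in KO-DHT against WT-DHT. Calls were lost for *Fgfr1* in the DHT interaction (at a threshold of 0.01, at 0.43 to 0.66), *Fgf2* in KO-empty against WT-empty (without WT-empty 3 or 4 or KO-empty 1 or 5, with library size only, with only the groups compared, without the 6 libraries high in *Lars2*, at −0.63 to −0.49), *Fgfr4* in KO-DHT against WT-DHT (without WT-DHT 5 and 6 together, at 0.77 to 0.97), *Fgf13* with DHT in KO (without KO-empty 3 or 4 or KO-DHT 1, 2, 3 or 5, with library size only, with only the groups compared, without the 6 libraries high in *Lars2*, at 0.28 to 0.39) and *Fgf7* in KO-DHT against WT-DHT (without WT-DHT 1, 2, 3 or 4 or KO-DHT 2, 3, 4, 5 or 6, with library size only, without the 6 libraries high in *Lars2*, at −1.04 to −0.70).

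Of 14 genes listed for neurotrophins, GDNF, CNTF and their receptors, 12 were tested (*Gdnf* and *Cntf* not analysed here). Calls were 0 higher and 1 lower after ORX in KO (median 0.073), 0 higher and 1 lower in KO-ORX against WT-ORX (median −0.042), 1 higher and 3 lower with DHT in WT (median −0.10), 1 higher and 1 lower with DHT in KO (median 0.10), 0 higher and 1 lower in KO-empty against WT-empty (median 0.041), 1 higher and 0 lower in KO-DHT against WT-DHT (median 0.27), with 0 in the other 4 (medians −0.16 to 0.26). *Bdnf*, a ligand of NGFR and TrkB, was at log2 −2.01 (SE 0.33, edgeR q = 7.3e-05) with DHT in WT and −1.601 (SE 0.32, q = 0.0019) with DHT in KO. *Cntfr*, the CNTF receptor, was at log2 −1.39 (SE 0.26, edgeR q = 3.7e-04) with DHT in WT. *Ntf5*, a neurotrophin, was at log2 −0.54 (SE 0.12, edgeR q = 0.0040) after ORX in KO, 0.55 (SE 0.13, q = 0.0041) with DHT in WT and 0.67 (SE 0.13, q = 0.0015) with DHT in KO. *Sorcs2*, a partner of NGFR, was at log2 0.59 (SE 0.13, edgeR q = 0.0024) in KO-DHT against WT-DHT. *Sort1*, sortilin, was at log2 −0.32 (SE 0.067, edgeR q = 0.0033) in KO-ORX against WT-ORX and −0.37 (SE 0.082, q = 0.0051) in KO-empty against WT-empty. *Gfra1*, a GDNF receptor, was at log2 −0.50 (SE 0.13, edgeR q = 0.0058) with DHT in WT. Alternatives ended the calls of *Bdnf* with DHT in KO (without the 6 libraries high in *Lars2*, at −1.88 to −1.44), *Ntf5* after ORX in KO (without KO-sham 6 or KO-ORX 2 or 5, with library size only, with only the groups compared, at −0.60 to −0.44), *Ntf5* with DHT in WT (without WT-empty 3, 4 or 5 or WT-DHT 4, 5 or 6, with only the groups compared, without WT-DHT 5 and 6 together, without the 6 libraries high in *Lars2*, at 0.45 to 0.64), *Sort1* in KO-ORX against WT-ORX (without KO-ORX 1, 2 or 4, with library size only, with only the groups compared, at −0.37 to −0.27), *Sort1* in KO-empty against WT-empty (without WT-empty 2, 4 or 5 or KO-empty 1, 3 or 4, with only the groups compared, at −0.42 to −0.31) and *Gfra1* with DHT in WT (without WT-empty 2, 3 or 4 or WT-DHT 1, 2, 3 or 5, without WT-DHT 5 and 6 together, without the 6 libraries high in *Lars2*, at −0.57 to −0.42).

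Patterns most like 3 of the genes were sought among the 16642 genes of both tables by the root mean square difference of the 8 group means of log2 CPM, after subtracting from each the mean of its experiment. The spread given is the root mean square of the gene's own 8 values. For *Musk*, with a spread of 0.878, the nearest were *Shc2* (0.163), *Spns2* (0.169) and *Gm17709* (0.1704). For *Fgfbp1*, with a spread of 1.39, the nearest were *Gm12514* (0.361), *5730420D15Rik* (0.482) and *Rasd2* (0.575). For *Ngfr*, with a spread of 0.934, the nearest were *Dhrs9* (0.182), *Bdnf* (0.212) and *Gm15337* (0.233).

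Of the 10 genes, 8 matched a promoter of RefSeq (build GRCm38.p6; *Dok7* has 2), and the 250 bases before the start were searched for E-boxes (CANNTG, sites of myogenic factors), the N-box core (TTCCGG, bound by ETS factors at synaptic genes) and the hexamer TGTTCT of the androgen response element, each on both strands. The searched motifs share no letters in these windows. *Chrnd* and *Rapsn* are named only. Over 32851 promoters, 66.2% hold an E-box, 12.0% the N-box core and 16.1% the hexamer. E-boxes number 3 in *Chrna1*, 3 in *Chrnb1*, 1 in *Chrne*, 3 in *Musk*, 1 in the first *Dok7* promoter, 0 in the second, 1 in *Ache*, 2 in *Fgfbp1* and 2 in *Ngfr*. The N-box core is found in *Chrne*, read on the other strand as CCGGAA, 76 bases before the start, and in *Ngfr*, 102 bases before. The hexamer is found in 1 of the 9 windows, that of *Fgfbp1*, 190.0 bases before the start. No binding was measured. The *Musk* promoter lies at chr4:58285712-58285961, plus strand, that of *Chrne* at chr11:70619195-70619444, minus strand, that of *Fgfbp1* at chr5:43981800-43982049, minus strand and that of *Ngfr* at chr11:95587699-95587948, minus strand. *Musk*, *Fgfbp1* and *Ngfr* are shown as the genes with the largest fold changes, and *Chrne* as it holds both an E-box and the N-box core. They are printed 5′ to 3′ with matches of the 3 motifs in capitals.
Musk: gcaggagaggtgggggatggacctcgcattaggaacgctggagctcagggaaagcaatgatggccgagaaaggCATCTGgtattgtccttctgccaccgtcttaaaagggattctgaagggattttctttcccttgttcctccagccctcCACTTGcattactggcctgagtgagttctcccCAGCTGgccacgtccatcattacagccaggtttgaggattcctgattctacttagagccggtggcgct
Chrne: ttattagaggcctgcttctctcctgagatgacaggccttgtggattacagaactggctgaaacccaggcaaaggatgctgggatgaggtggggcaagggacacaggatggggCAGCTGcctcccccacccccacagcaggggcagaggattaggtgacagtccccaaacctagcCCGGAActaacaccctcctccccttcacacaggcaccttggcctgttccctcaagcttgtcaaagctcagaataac
Fgfbp1: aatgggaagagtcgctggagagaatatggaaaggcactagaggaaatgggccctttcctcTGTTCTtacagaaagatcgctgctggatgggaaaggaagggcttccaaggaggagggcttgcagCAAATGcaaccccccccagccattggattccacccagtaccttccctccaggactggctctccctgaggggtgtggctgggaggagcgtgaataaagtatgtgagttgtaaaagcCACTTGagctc
Ngfr: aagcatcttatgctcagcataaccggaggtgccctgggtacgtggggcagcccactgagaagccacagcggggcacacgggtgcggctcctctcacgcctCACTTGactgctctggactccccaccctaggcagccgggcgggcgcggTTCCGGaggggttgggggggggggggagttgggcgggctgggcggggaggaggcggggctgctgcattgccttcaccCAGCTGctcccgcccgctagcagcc

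The groups are small, 1 muscle was analysed here per sex and androgen setting, and androgen loss and gain were studied in different sexes, muscles and ages, so the 2 experiments cannot be set against each other. RNA of bulk muscle tissue was measured here, with no protein, binding or innervation. How much of the synaptic zone each sample held was not measured. The 10 genes were selected for changes already seen in these data, so nothing here tests them anew. Counts of *Chrnd*, *Fgfbp1* and *Ngfr* are low in some groups, and *Chrnd* is not tested in spinalis when 10 counts are asked of every library. The calls of *Chrnb1* in gastrocnemius lay near the threshold, at edgeR adjusted p from 0.0059 to 0.0084. Its DHT interaction call lay near its own threshold, at edgeR adjusted p 0.042. The same held for *Fgfbp1* in KO-ORX against WT-ORX (edgeR adjusted p 0.0080), *Chrne* in KO-DHT against WT-DHT (0.0081) and *Musk* after ORX in KO (0.0067). Leaving out any of several single libraries ended each of these calls, with fold changes of the same sign.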

How the data were processed

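Values are the deposited gene counts of gastrocnemius and the deposited gene counts of spinalis, which the authors made with STAR 2.7.1b, SAMtools 1.9, Picard 2.20.2 and featureCounts of Subread 2.0.0 on GRCm39. Reads were not processed again. Symbols and exon lengths were matched by Ensembl ID to GENCODE M21 (GRCm38.p6). Of 17514 gastrocnemius genes, 17433 had a symbol, and of 16987 spinalis genes, 16920.

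The filter of 0.5 CPM in at least 2 libraries removed 0 genes. Counts were scaled by TMM and tested with the edgeR quasi-likelihood F test on group means, for each muscle on its own, with Benjamini-Hochberg adjustment over all genes. Log2 CPM use a prior count of 2. Versions were R 4.3.3, edgeR 4.0.16, limma 3.58.1, DESeq2 1.42.0, Python 3.11.15, pandas 2.3.3 and matplotlib 3.10.9.

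The 10 members and all pathway and marker lists were chosen with earlier results of these data known. For 2 genes of the pathway lists results are not reported here, and the list counts leave them out. The text describes each other list gene called in any of the 8 pairwise comparisons, up to 6 per list by smallest adjusted p, and *Agrn*, *Lrp4*, *Chrng* and *Colq* in any case. *Nid2*, *Cdkn1a* and *Myh8*, called but beyond those 6, are named only among the lost calls. Alternatives were DESeq2, limma-voom, RLE, library size only, at least 10 counts in every library, thinned counts, only the groups compared, another threshold, a replicate block and leaving out each library. After seeing the data, leaving out WT-DHT 5 and 6 together, and all 6 spinalis libraries with *Lars2* above 4000 CPM, were added. All 105 pairs of libraries within groups were compared and 0 were identical. Libraries held 26653932 to 55369921 counts, and 1 CPM after TMM scaling stands for 26.6 to 54.4 counts. The edgeR fit was also run on simulated data, and the outcome is not given here. Of 46 labelled samples 45 had a column, and the sixth KO-ORX sample was not analysed here. Promoters are from RefSeq (GRCm38.p6). Receptor proteins were not compared, as protein sequences were not used here.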

Additional observations from a re-analysis of the deposited data

Results flagged for a closer look

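By the rule used here for values standing apart, 3 of 80 groups of libraries of 1 gene had a lowest or highest library set off from the rest. Chance alone sets off about 1 in 20 groups. *Chrna1* in WT-sham library 5 was the lowest of its group at 2.66 log2 CPM (6.25 CPM), with the next at 3.31. *Chrne* in the same library was lowest at 2.999 log2 CPM (7.95 CPM), with the next at 3.43. *Ngfr* in WT-ORX library 3 was lowest at −1.17 log2 CPM (0.395 CPM), with the next at 0.10. No library was left out for this.

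The genotype by DHT interaction was called in edgeR for 4 of the 10 genes. It was 0.41 for *Chrnb1* (edgeR q = 0.042), −0.97 for *Musk* (edgeR q = 0.0013), 0.85 for *Ache* (edgeR q = 0.0015) and 2.23 for *Fgfbp1* (edgeR q = 1.7e-04), as log2 fold change in KO minus that in WT. The genes were selected with these results known, so the q are no evidence.

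*Fgfbp1* in KO-ORX library 3 was at 12.4 CPM, against 5.12, 3.79, 3.22, 3.41 in the other 4. That library was at 2.04 CPM for *Krt10*, where KO-ORX ran from 1.38 to 2.08 CPM. For the 8 Schwann cell markers it was the lowest of KO-ORX, at 40.4 CPM in a range up to 73.6 CPM. It stood apart within KO-ORX for *Lars2*, at 412 CPM against 131 to 163 in the other 4, and for *Mir6236*, at 73.9 CPM against 20.7 to 25.02. Of the 23 gastrocnemius libraries, WT-ORX 1 (1037.5) and WT-sham 6 (713) were higher for *Lars2*. The cause was not tested.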

How the results depend on the processing

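Each result was recomputed with DESeq2, limma-voom, RLE scaling, library size only, a minimum of 10 counts per library, counts thinned to the depth of the smallest one, only the groups compared, another threshold, a replicate block (ORX only), without each library in turn and, chosen after seeing the data, without WT-DHT 5 and 6 or without the 6 spinalis libraries high in *Lars2*. Of 3160 fold changes of the 10 genes under alternatives, 3159 differed from the main value by less than 1 SD between the libraries of a group. In 59 the sign differed, in each for a fold change not called, and in 118 the call differed. Without KO-ORX 3, *Fgfbp1* went from 0.22 to −0.33 after ORX in KO, from −1.08 to −1.63 in KO against WT after ORX and from −0.52 to −1.07 in the interaction, which was the 1 that differed by more. All 160 group levels differed by less than 1 SD. For *Actn3*, the called list genes (24 of the lost calls are those of *Nid2*, *Cdkn1a* and *Myh8*) and *Agrn*, *Lrp4* and *Colq*, 3402 of 3697 fold changes kept their call, 286 lost it, 9 gained it and 0 called ones changed sign. Of 4452 list counts, 4135 were within 1.5 times the main count. Where a number below differs, the cause was not tested.

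The number of all genes called in the genotype by ORX interaction was 4 in the main analysis, 127 with DESeq2, 10 with limma-voom, 16 with thinned counts, 1 at a threshold of 0.01, and from 2 without KO-sham 6 to 38 without KO-ORX 3. For ORX in KO it was 975, with 484 from only the groups compared, 1925 at 0.05, and from 589 without KO-ORX 4 to 1116 without KO-sham 5. For ORX in WT it was 955, with 1735 at 0.05. For KO against WT in sham it was 928, with 1838 at 0.05, and for KO against WT after ORX 666, with 1260 at 0.05.

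For DHT in KO the number of genes called was 784, with 1201 from DESeq2, 498 from only the groups compared and 1840 at 0.05. For KO against WT with empty implants it was 722, with 289 from only the groups compared, 1557 at 0.05, and from 450 without WT-empty 3 to 700 without WT-DHT 2. For DHT in WT it was 1914, with 3078 at 0.05, for KO against WT with DHT 1978, with 3170 at 0.05, and for the genotype by DHT interaction 550, with 273 at 0.01. In the order of this paragraph, the 5 numbers were 427, 283, 1195, 1301 and 273 without the 6 libraries high in *Lars2*.

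Of the 10 members, ORX in WT called 2, and 3 with limma-voom, 1 with thinned counts, 4 with only the groups compared, 5 at 0.05 and from 1 without WT-sham 1 to 3 without KO-ORX 3. ORX in KO called 2 members, and 1 with library size only, 0 with thinned counts, 0 with only the groups compared and from 0 without KO-sham 2 to 2 without KO-sham 3. KO against WT in sham called 2 members, and 1 each with limma-voom, library size only, thinned counts and only the groups compared, and from 1 without KO-sham 1 to 2 without KO-sham 2. KO against WT after ORX called 3 members, and 2 with thinned counts, 2 with only the groups compared and from 1 without KO-ORX 1 to 3 without KO-sham 1. DHT in WT called 5 members and 3 with at least 10 counts in every library, and DHT in KO called 4 and 2, since low-count genes are then not tested.

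The replicate block, which treats equal replicate numbers as paired, called 1 member for ORX in WT, 1 for ORX in KO, 1 for KO against WT in sham and 2 for KO against WT after ORX, with *Chrnb1* called in none of the 4. Of the named list genes, the block did not call *Bche* in KO against WT after ORX and *Dtna* in KO against WT in sham, and called *Lrp4* in the latter. It changed no other of these calls. Correlations of libraries with the same number ran from −0.15 to 0.188, so the numbers were not taken as pairs.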
